A study of Mus musculus with 12 samples.

Results

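Mitochondrial ribosomal protein genes were followed through overexpression and inhibition of the long noncoding RNA lncRNA8276 in C18-4 cells, a cell line derived from mouse spermatogonial stem cells. They were chosen by symbol alone, as the genes whose symbol begins with Mrps or Mrpl followed by a number. This gave 78 of the 17576 genes in the deposited table, 29 with small-subunit symbols (Mrps) and 49 with large-subunit symbols (Mrpl). All 78 reached 1 in 3 or more libraries, the filter used here, and were tested. The 12 total RNA libraries fell into 4 groups of 3. In 8276OV the cells had received a virus for overexpression of lncRNA8276, and 5NC was taken as its control. In 8276KD the virus was for inhibition of lncRNA8276, and 3NC was taken as its control. The meaning of 5NC and 3NC is not written out, and they were assigned from the order in which the design text names the groups. All libraries carry the same cell and strain label (IRC mouse). Nothing states whether replicate libraries are separate cultures, and the spread that p-values measure may be technical. No measurement of lncRNA8276 was used here, so the group labels were not checked by it.

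Mitochondria carry their own ribosome, the mitoribosome, which translates the few messenger RNAs of the mitochondrial genome into core subunits of the oxidative phosphorylation complexes. Its ribosomal RNAs come from mitochondrial DNA, whereas all of its proteins are encoded by nuclear genes, made in the cytosol and imported. Some of these proteins have homologues in the bacterial ribosome and others exist only in mitochondria. The small subunit binds the messenger RNA and decodes it, and the large subunit joins the amino acids and releases the chain through its exit tunnel.

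Values were read as FPKM, fragments per kilobase of transcript scaled by library depth, from the numbers themselves, since no label or header names the unit. The steps between low values implied a depth of 12.4 to 14.3 M fragments per library. Pearson's r of log2(FPKM + 1) ranged from 0.993 to 0.998 within groups and from 0.951 to 0.988 between groups. Of 11 germ cell markers in the table, 9 stayed below 1 in all 12 libraries and 2 (Etv5 and Id4) reached it. Among the other lists, 4 of 4 mesothelial or epithelial, 4 of 5 peritubular myoid and 2 of 6 Sertoli markers reached 1. The Leydig and macrophage lists had 1 of 3 each. The summed germ cell markers ranged from 3.01 to 3.53 FPKM in 8276OV, 4.45 to 5.39 in 5NC, 6.1 to 6.31 in 8276KD and 9.17 to 10 in 3NC. The summed mesothelial or epithelial markers (Krt8, Krt19, Msln and Upk3b) ranged from 698 to 823 in 8276OV, 1089 to 1109 in 5NC, 752 to 880 in 8276KD and 558 to 577 in 3NC. The part of these differences in the results was not tested.

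The members were abundant and spanned a wide range of levels per length. Mrpl33, a small basic protein of the large subunit, was the highest at a mean of 373 FPKM over the 12 libraries, followed by Mrpl13 at 142, Mrpl18 at 132 and Mrps18c at 129. Mrpl17 was the lowest at 4.41 FPKM, after Mrpl41 at 7.48 and Mrpl36 at 7.59. At the implied depth, the 12 values of Mrps12 rest on about 64 to 205 fragments and those of Mrpl41 on 64 to 90. Small-subunit genes summed to 1487, 1463 and 1501 FPKM in 8276OV, against 1504, 1461 and 1473 in 5NC, and to 1461, 1552 and 1491 in 8276KD, against 1425, 1397 and 1436 in 3NC. Large-subunit genes summed to 2899, 2949 and 2985 FPKM in 8276OV, against 2913, 2802 and 2846 in 5NC, and to 2882, 3078 and 2923 in 8276KD, against 2816, 2751 and 2836 in 3NC. The sums of 8276OV and 5NC overlapped for both subunits, and those of 8276KD lay above those of 3NC for both. Mrpl33 alone had 381, 391 and 363 FPKM in 8276KD, against 291, 290 and 284 in 3NC. Without it the large-subunit sums of 8276KD and 3NC would overlap. With 3 libraries a group, an exact permutation test of such a sum cannot give a p below 0.1. The large-subunit sum was 1.92 to 2.02 times the small-subunit sum in every library.

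The comparison of 8276OV with 5NC asks how overexpression of lncRNA8276 changed these genes. The genes moved apart in both directions. Of the 29 small-subunit genes, 11 rose, 12 fell and 6 did not pass the test, by limma with Benjamini-Hochberg adjusted p below 0.05 over 11360 genes. Of the 49 large-subunit genes, 23 rose, 18 fell and 8 did not pass. Over all genes tested, 74.4% were called, 30.3% higher and 44.1% lower, so that calls were common everywhere in this comparison. The libraries of the groups did not overlap for 11 small-subunit genes that were higher and 12 that were lower, nor for 25 and 18 large-subunit genes, where this held for 32.0% and 45.6% of all genes. The median log2 fold change was 0.01 for the small subunit and 0.10 for the large subunit, beside -0.088 over all genes tested. The range was -1.33 to 0.90 in the small subunit and -1.28 to 0.77 in the large subunit. Since these are bulk samples, fewer cells of a type and less RNA per cell cannot be told apart.

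**Figure D1:**
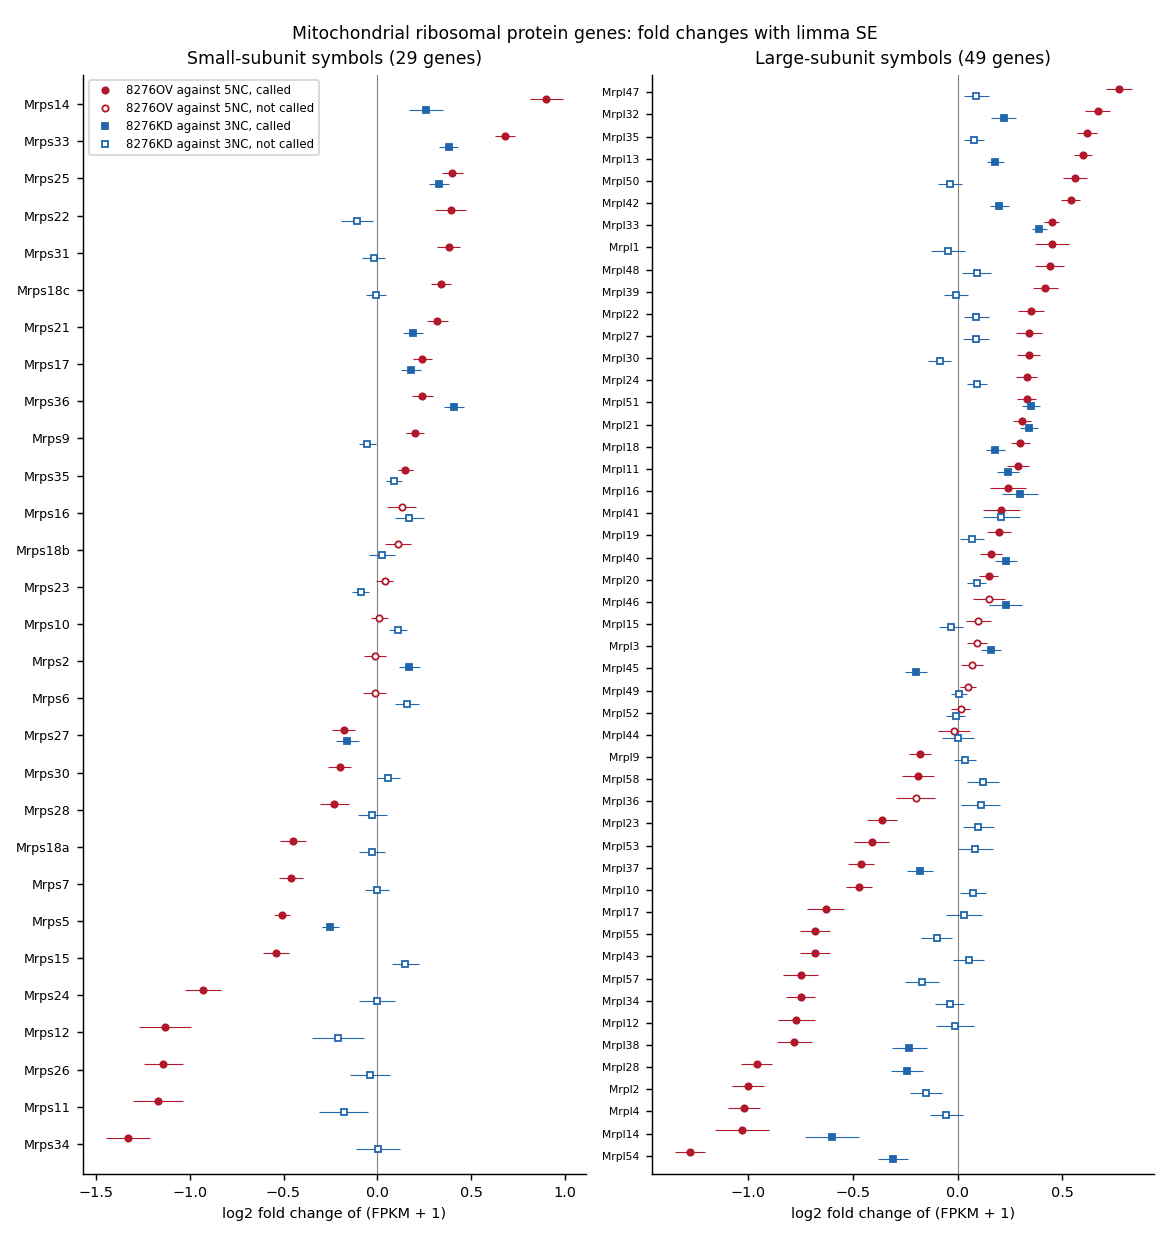
Log2 fold change (x axis, log2 of FPKM + 1) with limma standard error for each of the 29 small-subunit and 49 large-subunit genes, sorted by 8276OV against 5NC (red circles), with 8276KD against 3NC beside it (blue squares). Filled symbols passed the test. Under overexpression the genes spread from -1.33 to 0.90, and under knockdown from -0.60 to 0.41.

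In the small subunit the largest rise was that of Mrps14, a homologue of a bacterial protein in the head of the subunit (gene 64659, RefSeq annotation of GRCm38, chromosome 1, 160195215 to 160201186, plus strand). It had 73.6, 63.7 and 76.0 FPKM in 8276OV, against 41.3, 39.2 and 32.8 in 5NC. The 3 overexpression libraries all lay above the 3 controls, and the log2 fold change was 0.90 (SE 0.0889, adjusted p = 1.51e-06). Mrps33, a protein found only in mitochondrial ribosomes, had 109, 107 and 113 FPKM in 8276OV, against 66.4, 72.9 and 64.8 in 5NC (log2 fold change 0.68, SE 0.0514, adjusted p = 2.3e-07). Smaller rises were seen for Mrps25 at 0.40, Mrps22 at 0.39 and Mrps31 at 0.38. MRPS22 is known in humans as a gene of inherited mitochondrial disease. With 3NC as the control, Mrps22 was at 0.16 (adjusted p = 0.109), and the other 4 kept their rise.

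The largest fall of the small subunit was that of Mrps34, a mitochondria-specific protein needed for the stability of the subunit (gene 79044, chromosome 17, 24895120 to 24896289, plus strand). It had 16.4, 19.5 and 17.2 FPKM in 8276OV, against 51.6, 44.8 and 41.7 in 5NC. Every overexpression library lay below every control, with a log2 fold change of -1.33 (SE 0.117, adjusted p = 6.26e-07). Exons of Mrps34 overlap those of Mapk8ip3 and Nme3, and the handling of strand is not given in the sources used here, so reads of these genes may not have been told apart. Mrps11, a homologue of a bacterial platform protein, had 8.26, 9.70 and 10.5 FPKM in 8276OV, against 23.3, 23.2 and 21.2 in 5NC (log2 fold change -1.17, SE 0.132, adjusted p = 4.12e-06). Its exons overlap those of its neighbour Mrpl46, which was at 0.15 (adjusted p = 0.0895). Mrps26 had 26.2, 36.3 and 29.2 FPKM in 8276OV, against 71.7, 65.2 and 66.6 in 5NC, again without overlap (log2 fold change -1.14, SE 0.105, adjusted p = 8.81e-07). Mrps12, whose bacterial homologue lies at the decoding centre, fell by 1.13 (SE 0.138, adjusted p = 7.54e-06), and Mrps24 fell by 0.93 (SE 0.0949, adjusted p = 1.81e-06). Mrps24 was at -0.47 against 3NC (adjusted p = 0.000505), and its exons overlap Urgcp.

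In the large subunit Mrpl47, which sits near the exit tunnel (gene 74600, chromosome 3, 32727497 to 32736755, minus strand), had 42.2, 38.2 and 43.2 FPKM in 8276OV, against 24.4, 23.7 and 22.9 in 5NC. Its log2 fold change was 0.77 (SE 0.0616, adjusted p = 3.21e-07), and its exons overlap Actl6a and Ndufb5. Mrpl32, which in yeast and mouse is processed by the mitochondrial m-AAA protease, had 81.8, 73.0 and 82.0 FPKM in 8276OV, against 48.4, 49.1 and 50.5 in 5NC (log2 fold change 0.67, SE 0.0599, adjusted p = 7.26e-07). The next rises were those of Mrpl35 at 0.62, Mrpl13 at 0.60 and Mrpl50 at 0.56. Of these, Mrpl35 was at 0.13 against 3NC (adjusted p = 0.0245), and its level was 13.0 ± 0.186 FPKM in 5NC and 18.7 ± 0.872 in 3NC (SD, n = 3 each). Mrpl33, the most abundant member, had 476, 467 and 485 FPKM in 8276OV, against 345, 349 and 352 in 5NC, a log2 fold change of 0.45 (SE 0.036, adjusted p = 3.35e-07).

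Mrpl54, a mitochondria-specific protein, showed the largest fall of the large subunit (gene 66047, chromosome 10, 81264722 to 81266926, minus strand). It had 24.1, 25.8 and 28.1 FPKM in 8276OV, against 65.3, 65.4 and 63.0 in 5NC, with no overlap (log2 fold change -1.28, SE 0.0721, adjusted p = 4.11e-08). Mrpl14, which carries the binding site of the assembly factor Malsu1, had 27.0, 35.2 and 29.4 FPKM in 8276OV, against 60.0, 64.6 and 64.9 in 5NC (log2 fold change -1.03, SE 0.128, adjusted p = 8.99e-06). Its exons overlap Tmem63b. Mrpl4, whose bacterial homologue lines the exit tunnel, fell by 1.02 (SE 0.0782, adjusted p = 2.68e-07) and Mrpl28 by 0.96 (SE 0.0758, adjusted p = 2.98e-07). Mrpl2, whose bacterial homologue lies next to the peptidyl transferase centre, had 46.7, 56.5 and 53.3 FPKM in 8276OV, against 107, 99.1 and 109 in 5NC (adjusted p = 2.64e-07). Mrpl12, the protein of the stalk that recruits translation factors, had 80.0, 97.2 and 94.7 FPKM in 8276OV, against 169, 142 and 153 in 5NC (log2 fold change -0.77, SE 0.0896, adjusted p = 5.6e-06). All 5 named falls, and that of Mrpl12, were also called against 3NC, where the largest was Mrpl14 at -1.65.

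**Figure D2:**
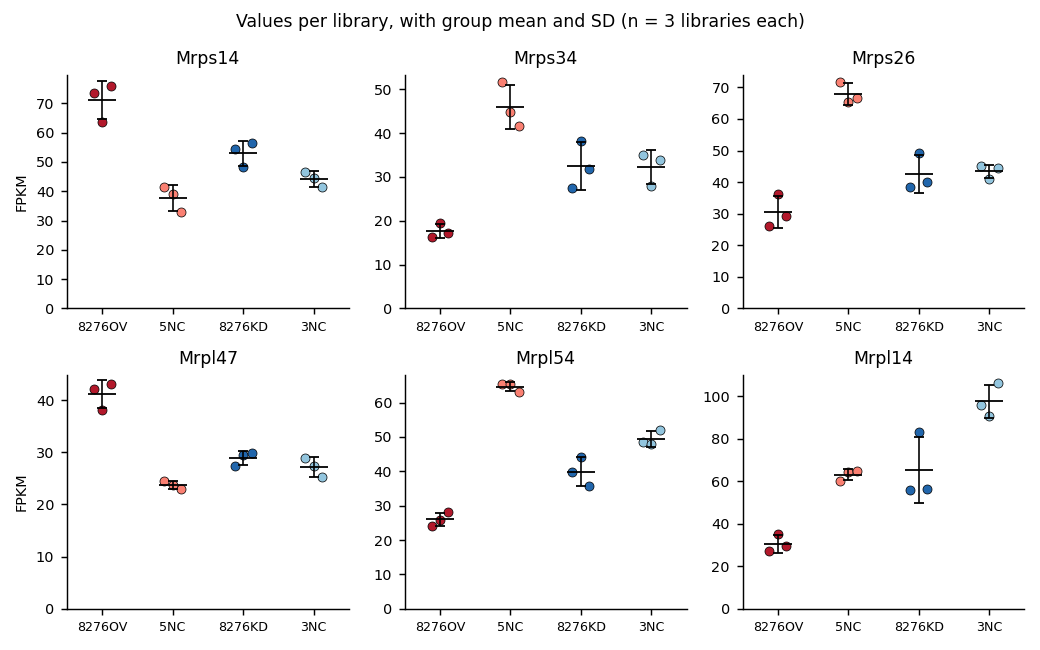
FPKM in each of the 12 libraries (points) with the group mean and SD (n = 3) for 6 members, each panel with its own axis from 0. Mrps14 and Mrpl47 are highest in 8276OV, whereas Mrps34, Mrps26, Mrpl54 and Mrpl14 are lowest there, and Mrpl14 is highest in 3NC at 97.6.

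The members that rose and those that fell differed in base composition, which is shown here by the first 30 codons of the genes with the largest change in each direction, from GENCODE M21 (GRCm38). Capitals mark a G or C at the last base of a codon, where most changes leave the amino acid as it is.
Mrps14: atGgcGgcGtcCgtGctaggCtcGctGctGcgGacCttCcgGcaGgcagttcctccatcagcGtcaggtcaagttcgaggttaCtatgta
Mrps34: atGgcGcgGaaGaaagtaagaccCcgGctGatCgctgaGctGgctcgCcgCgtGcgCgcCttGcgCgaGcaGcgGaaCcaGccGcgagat
Mrpl47: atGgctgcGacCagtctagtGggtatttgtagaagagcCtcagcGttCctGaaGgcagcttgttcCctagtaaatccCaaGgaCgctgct
Mrpl54: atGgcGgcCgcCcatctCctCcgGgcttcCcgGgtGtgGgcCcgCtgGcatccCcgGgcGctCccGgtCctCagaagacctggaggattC
The last base was G or C in 16 of these 30 codons in Mrps14 and 13 in Mrpl47, the genes with the largest rises, against 23 in Mrps34 and 22 in Mrpl54, the genes with the largest falls. Over the whole coding sequence, G or C took 46.1% of these positions in Mrps14 and 45.6% in Mrpl47, against 78% in Mrps34 and 72.6% in Mrpl54.

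Fold changes under overexpression fell with GC content across the members. Spearman's rho between the log2 fold change and the GC content of the transcript was -0.69 over the 78 members, beside -0.81 over 11248 genes with a GC value, and with GC at the last base of codons it was -0.75 over the members. With the GC content of the coding sequence it was -0.84 over the members and -0.77 over 11170 genes. These are descriptions across genes of the same libraries, which are not independent replicates. Among the 26 members of lowest transcript GC (39.6% to 48.2%), 18 rose and 5 fell, with a median log2 fold change of 0.39. Of the 26 in the middle (48.4% to 52.5%), 13 rose and 6 fell, with a median of 0.11, and of the 26 of highest GC (52.6% to 60.6%), 3 rose and 19 fell, with a median of -0.61. Over all genes tested, 30.3% rose and 44.1% fell, and these shares were not split by GC content. The 26 members of lowest, middle and highest GC had a median GC of 45.4%, 50% and 55.7%. Among 10 bins of all genes, those of nearest median GC (45.7%, 49.6% and 55.3%) had median log2 fold changes of 0.20, -0.01 and -0.42. The order with GC was thus shared with all genes. Among the members it was present in each overexpression library. Relative to each gene's mean over the 12 libraries, the median of the 26 members of lowest GC was 0.25, 0.17 and 0.26 on the log2 scale in the 8276OV libraries, against -0.11, -0.12 and -0.12 in 5NC. The median of the 26 of highest GC was -0.49, -0.35 and -0.36 in 8276OV, against 0.27, 0.11 and 0.17 in 5NC.

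**Figure D3:**
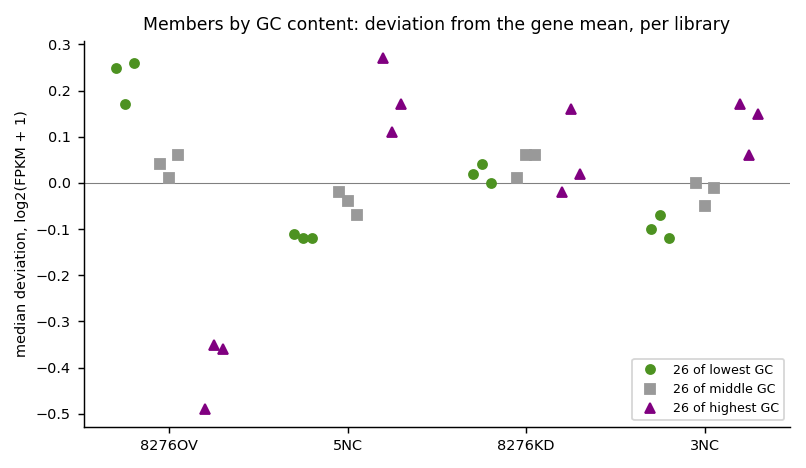
Median deviation from the gene's mean over the 12 libraries, in log2(FPKM + 1) (y axis), for the 26 members of lowest (circles), middle (squares) and highest (triangles) transcript GC content, with a symbol per library. The 8276OV libraries reach 0.26 for the members of lowest GC and -0.49 for those of highest GC, and the 5NC and 3NC libraries show the opposite order.

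The trend with GC content was therefore removed from each library by a spline over all genes, in turn with the GC content of the whole transcript and of its coding sequence. Whether library preparation took part in the trend was not tested, and a change of expression that itself follows GC content would be removed with it. With transcript GC, 12 small-subunit genes rose and 8 fell, and 22 large-subunit genes rose and 14 fell, where 27.0% of all genes rose and 27.4% fell. With coding GC, 13 small-subunit genes rose and 8 fell, and 26 large-subunit genes rose and 13 fell, where 28.1% of all genes rose and 29.0% fell. Of the 64 members called on the values as deposited, 45 were called in the same direction under both corrections, 8 small-subunit and 19 large-subunit genes that rose and 7 and 11 that fell. Mrps34 was then at -0.63 with transcript GC and -0.71 with coding GC, Mrpl54 at -0.59 and -0.73, Mrps14 at 0.51 and 0.87, and Mrpl47 at 0.56 and 0.47, with adjusted p of at most 2.69e-05 for these 4. Mrpl2 was at -0.45 and -0.57, Mrpl4 at -0.34 and -0.49, Mrpl28 at -0.37 and -0.51, Mrps12 at -0.51 and -0.52, and Mrpl12 at -0.30 and -0.24, all still called.

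Some members kept or lost their change depending on which GC content was used. The GENCODE transcripts used for Mrps26, Mrpl57 and Mrpl17 are long beside their coding sequences. Their GC content (49.2%, 42.3% and 43%) is lower than that of the coding sequences (64.2%, 60.8% and 57.4%). The transcript used for Mrps26, of 4278 bases, is longer than its RefSeq gene span (chromosome 2, 130563757 to 130565394). Its transcript GC, and the value corrected with it, therefore depend on the transcript chosen. Exons of Mrps26 also overlap 4930473A02Rik. On the values as deposited Mrps26, Mrpl57 and Mrpl17 were at -1.14, -0.75 and -0.63. With transcript GC they were at -1.17, -1.07 and -0.92, and with coding GC at -0.51, -0.20 and -0.21, called in every case (adjusted p = 3e-06, 0.0183 and 0.0211 with coding GC). Against 3NC Mrpl57 was at -0.47 and Mrpl17 at -0.10 (adjusted p = 0.298). Mrpl43 was at -0.56 with transcript GC (adjusted p = 3.23e-06) and at -0.07 with coding GC (adjusted p = 0.186). Mrpl53 changed sign, at 0.20 with coding GC and -0.41 on the values as deposited, and was called both times (adjusted p = 0.00675 and 0.000578). Mrpl52, which did not pass on the values as deposited (0.0145), rose by 0.52 with transcript GC and 0.38 with coding GC. Mrpl13, with a coding GC content of 47.4%, was at 0.72 and 0.37, and its exons overlap Mtbp.

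**Figure D4:**
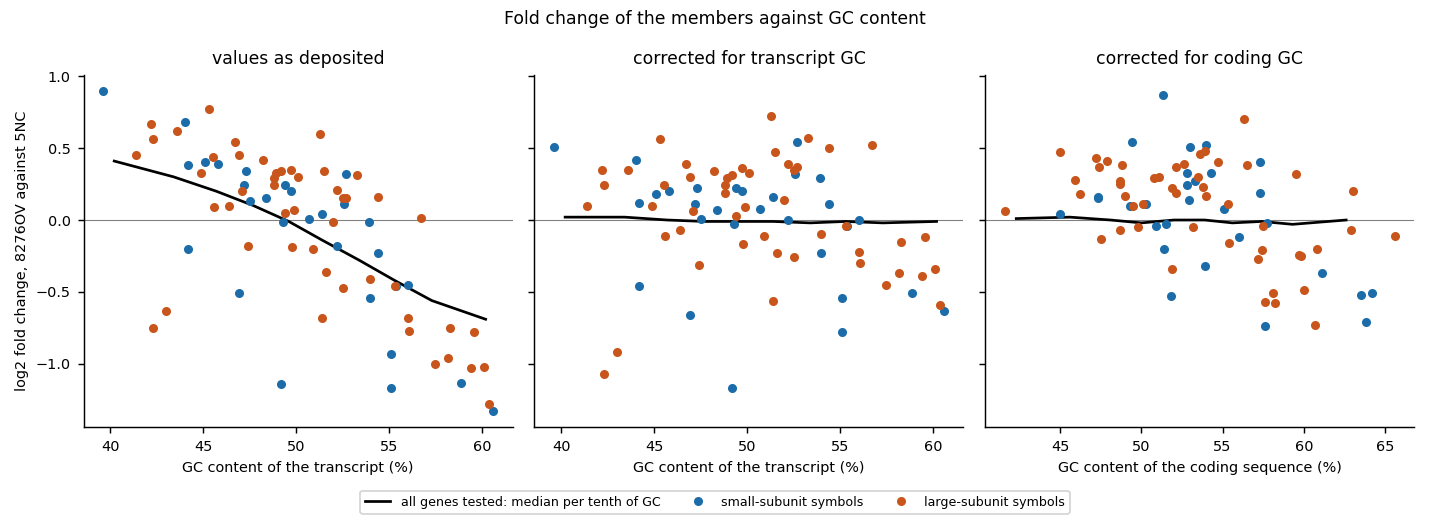
Log2 fold change of 8276OV against 5NC (y axis) against GC content (x axis, %) for 29 small-subunit (blue) and 49 large-subunit genes (orange), on the values as deposited, after correction for transcript GC and after correction for coding GC. The black line is the median of all genes tested in 10 bins of GC content and runs between 0.41 at low and -0.69 at high GC in the first panel. After either correction the line is flat near 0, while members still reach -1.17 (transcript GC) and 0.87 (coding GC).

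The comparison of 8276KD with 3NC asks what inhibition of lncRNA8276 did to the same genes. Most members did not pass the test. In the small subunit 7 rose, 2 fell and 20 did not pass, and in the large subunit 12 rose, 6 fell and 31 did not pass, where 39.4% of all genes were called, 20.0% higher and 19.5% lower. The median log2 fold change was 0.0012 in the small and 0.074 in the large subunit, beside -0.0048 over all genes tested. Several of these counts changed when a library was left out, some of them for more than one choice of library. The shares of all genes called in those fits are not given here. Without replicate 3 of 8276KD, 4 small-subunit genes rose, 1 fell and 3 large-subunit genes fell. Without replicate 1 of 3NC or of 8276KD, 1 small-subunit and 3 large-subunit genes fell, without replicate 2 of 3NC 1 small-subunit gene fell, and without replicate 3 of 3NC 3 large-subunit genes fell. Of the 27 calls, 26 were called in the same direction under both GC corrections, which called 48.5% (transcript GC) and 46.9% (coding GC) of all genes.

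Mrps36, which is named for the small subunit but works as a part of the oxoglutarate dehydrogenase complex, rose most in the small-subunit list, with 83.0, 83.8 and 78.9 FPKM in 8276KD, against 57.7, 64.5 and 62.3 in 3NC. The groups did not overlap, and the log2 fold change was 0.41 (SE 0.0543, adjusted p = 6.52e-05). GENCODE M21 also lists a pseudogene of Mrps36, whose reads may have been shared with it. Mrps33 had 92.3, 91.2 and 97.0 FPKM in 8276KD, against 73.2, 68.0 and 73.1 in 3NC (log2 fold change 0.38, SE 0.0514, adjusted p = 6.96e-05). Mrps25 rose by 0.33 (adjusted p = 0.000389), Mrps14 by 0.26 (adjusted p = 0.0353) and Mrps21 by 0.19 (adjusted p = 0.016). Exons of Mrps25 overlap Nr2c2. Without replicate 2 or 3 of 3NC, or replicate 1 or 3 of 8276KD, Mrps14 no longer passed (adjusted p between 0.0722 and 0.132). Mrps5, a homologue of a bacterial protein at the entry of the messenger RNA, had 48.2, 46.3 and 45.0 FPKM in 8276KD, against 55.3, 54.6 and 56.3 in 3NC, and fell by 0.25 (SE 0.0432, adjusted p = 0.000582). Mrps27, a pentatricopeptide repeat protein, fell by 0.16 (adjusted p = 0.0455), a call lost in 4 of the 6 fits without a library of these groups.

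Mrpl33 led the large-subunit rises under knockdown, with 381, 391 and 363 FPKM in 8276KD, against 291, 290 and 284 in 3NC. All 3 knockdown libraries were above all 3 controls (log2 fold change 0.39, SE 0.036, adjusted p = 2.9e-06). Mrpl51 had 69.0, 66.0 and 66.0 FPKM in 8276KD, against 51.1, 51.7 and 54.6 in 3NC (log2 fold change 0.35, SE 0.0442, adjusted p = 4.54e-05). Mrpl21 rose by 0.34, Mrpl16 by 0.30 and Mrpl11, at the base of the stalk, by 0.24, and exons of Mrpl21 overlap Ighmbp2. The largest fall was that of Mrpl14, with 56.0, 83.0 and 56.6 FPKM in 8276KD, against 96.1, 90.6 and 106 in 3NC. Replicate 2 of 8276KD stood above the other two but below each control (log2 fold change -0.60, SE 0.128, adjusted p = 0.00252). Against 5NC, where Mrpl14 averaged 63.1 ± 2.71 FPKM (SD, n = 3), the difference was 0.02 (adjusted p = 0.901). Mrpl54 had 39.8, 44.2 and 35.7 FPKM in 8276KD, against 48.4, 47.8 and 52.1 in 3NC (log2 fold change -0.31, SE 0.0721, adjusted p = 0.00424). Mrpl38, Mrpl45 and Mrpl37 fell by 0.23, 0.20 and 0.18 (adjusted p = 0.0394, 0.00762 and 0.0371). The calls of Mrpl38, Mrpl37 and Mrpl16 were lost in 4, 5 and 3 of the 6 fits without a library of these groups.

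No member was called in opposite directions under overexpression and knockdown. Of the 64 members called under overexpression and the 27 called under knockdown, 23 were called in both, all 23 in the same direction, 16 higher and 7 lower. That is 35.9% of the overexpression calls and 85.2% of the knockdown calls. Over all genes tested, 51.7% of the knockdown calls were called in the same direction under overexpression and 22.3% in the opposite direction, and none of the 27 member calls was opposite. Under both GC corrections as well, 19 members moved the same way in both arms by this test, and 0 moved in opposite ways. That is 42.2% of the 45 overexpression calls and 73.1% of the 26 knockdown calls that held in all 3 fits. Over all genes, 1030 of the 3258 overexpression calls (31.6%) and of the 4125 knockdown calls that held moved the same way, and 323 moved in opposite ways (9.91% and 7.83%). The 14 that rose there were Mrps14, Mrps17, Mrps21, Mrps25, Mrps33, Mrpl11, Mrpl13, Mrpl18, Mrpl21, Mrpl32, Mrpl33, Mrpl40, Mrpl42 and Mrpl51. The 5 that fell were Mrps5, Mrpl14, Mrpl28, Mrpl38 and Mrpl54. The arms have separate controls, and the 2 controls differ from each other, as the comparison of 5NC with 3NC shows.

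**Figure D5:**
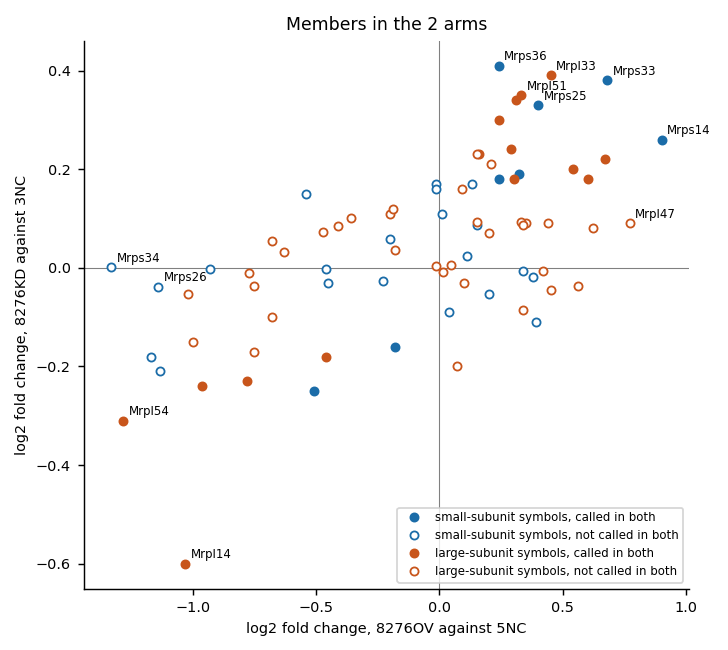
Log2 fold change of 8276KD against 3NC (y axis) against that of 8276OV against 5NC (x axis) for small-subunit (blue) and large-subunit genes (orange). The 23 filled points, called in both arms, lie at the upper right (16) and lower left (7).

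The size of the effects was compared between the arms directly. The contrast of the overexpression effect minus the knockdown effect was called for 6 small-subunit genes upward and 10 downward, and for 14 and 17 large-subunit genes, where 24.5% of all genes were called upward and 36.2% downward. With transcript GC it was called for 8 and 10 small-subunit and 17 and 14 large-subunit genes (all genes 24.4% and 24.7%). With coding GC the counts were 9 and 7, and 17 and 12 (all genes 23.6% and 24.9%). The lowest small-subunit value went from -1.33 to -1.12 with transcript GC and -0.78 with coding GC. On the values as deposited, Mrps34 was at -1.33 in this contrast (SE 0.165, adjusted p = 2.72e-05). It did not pass under knockdown (27.4, 38.3 and 31.8 FPKM in 8276KD, against 35.1, 28.0 and 33.9 in 3NC). Mrps26 was at -1.10 (adjusted p = 5.19e-05), Mrpl54 at -0.98 (adjusted p = 7.79e-06), Mrpl47 at 0.68 (adjusted p = 3.34e-05) and Mrps14 at 0.64 (adjusted p = 0.000756). For Mrpl33 the difference between the arms was 0.0579 (SE 0.051, adjusted p = 0.339), and for Mrps25 it was 0.0715 (SE 0.0769, adjusted p = 0.434). Mrpl14 was at -0.44 (SE 0.182, adjusted p = 0.0516) and at 0.11 with transcript GC (adjusted p = 0.444).

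The comparison of 5NC with 3NC shows how far the groups taken as controls stood apart. It called 9 small-subunit genes higher and 4 lower, and 12 large-subunit genes higher and 13 lower, where 30.6% of all genes were higher and 25.9% lower. Without replicate 3 of 3NC, 5 small-subunit genes were higher, and without replicate 1 or 2 of 3NC or replicate 2 or 3 of 5NC, 2 small-subunit and 6 to 8 large-subunit genes were lower. Mrps26 had 71.7, 65.2 and 66.6 FPKM in 5NC, against 45.0, 41.1 and 44.3 in 3NC (log2 fold change 0.63, SE 0.105, adjusted p = 0.000194). Mrps34 was at 0.50 (adjusted p = 0.00254), Mrpl17 at 0.52 (adjusted p = 0.000202) and Mrpl54 at 0.38 (adjusted p = 0.000554). Among lower members, Mrpl14 was at -0.62 (adjusted p = 0.00109), Mrpl35 at -0.49 (adjusted p = 1.55e-06), Mrps9, a homologue of a bacterial protein of the head, at -0.26 (adjusted p = 0.000454) and Mrps22 at -0.24 (adjusted p = 0.0269). The call of Mrps22 was lost without replicate 1 or 2 of 3NC or replicate 2 or 3 of 5NC. For Mrps26, Mrps34 and Mrpl54 the level in 5NC was the highest of the 4 groups, and their log2 fold changes in 8276OV against 3NC were -0.51, -0.83 and -0.91.

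Members of bacterial descent and members found only in mitochondria were counted apart. Under overexpression 21 of 45 members with a bacterial homologue rose and 17 fell, against 13 and 13 of 33 mitochondria-specific members, where 30.3% of all genes rose and 44.1% fell. With transcript GC, 19 rose and 14 fell of the 45, against 15 and 8 of the 33 (all genes 27.0% and 27.4%). With coding GC, 21 rose and 13 fell of the 45, against 18 and 8 of the 33 (all genes 28.1% and 29.0%). Under knockdown 12 rose and 3 fell of the 45, against 7 and 5 of the 33, where 20.0% and 19.5% of all genes did. With 5NC as the control of 8276KD, 16 rose and 9 fell of the 45, against 8 and 7 of the 33. There 24.7% of all genes rose and 30.5% fell. The difference between the classes was not tested. Of the symbols that follow a small-subunit name but whose proteins lie elsewhere, Mrps18a and Mrps30 are built into the large subunit. Mrps18a had 43.0, 47.9 and 48.7 FPKM in 8276OV, against 66.8, 60.4 and 64.9 in 5NC, and fell by 0.45 (adjusted p = 5.36e-05), but was at 0.00 with transcript GC (adjusted p = 0.952) and -0.12 with coding GC (adjusted p = 0.0575). Its paralogs Mrps18b and Mrps18c, proteins of the small subunit, were at 0.11 (adjusted p = 0.162) and 0.34 (adjusted p = 5.65e-05), and Mrps18c was at 0.04 with coding GC. Mrps30 was at -0.20 on the values as deposited (adjusted p = 0.0085), -0.46 with transcript GC and 0.08 with coding GC. Under knockdown none of Mrps18a, Mrps18b, Mrps18c and Mrps30 passed, with log2 fold changes of -0.0304, 0.0244, -0.00717 and 0.0583.

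Mitoribosomal proteins with other symbols were listed apart. Of 5 tested, Chchd1 and Ptcd3 rose and Aurkaip1 and Gadd45gip1 fell under overexpression. Chchd1, a small-subunit protein, had 139, 123 and 136 FPKM in 8276OV, against 91.8, 81.5 and 79.2 in 5NC, and 116, 125 and 128 in 8276KD, against 89.7, 92.5 and 88.0 in 3NC. It rose in both arms without overlap, by 0.65 (adjusted p = 1.14e-06) and 0.45 (adjusted p = 9.23e-05). Ptcd3, a pentatricopeptide repeat protein of the small subunit, rose by 0.51 under overexpression (adjusted p = 2.9e-06) and was at -0.0113 under knockdown. Aurkaip1 and Gadd45gip1, proteins of the small and of the large subunit, fell by 0.86 and 0.90 under overexpression (adjusted p = 5.53e-07 and 1.13e-05). With transcript GC and with coding GC, Chchd1 was at 0.57 and 0.70 under overexpression and Ptcd3 at 0.21 and 0.16. Aurkaip1 was at -0.39 and -0.53 and Gadd45gip1 at -0.52 and -0.29, and all of these were called. Dap3, a GTP-binding protein of the small subunit, was at -0.0863 (adjusted p = 0.107). It was at -0.02 with transcript GC (adjusted p = 0.681), but was called lower with coding GC, at -0.19 (adjusted p = 0.00304). Against 3NC it was also called lower, at -0.16 (adjusted p = 0.0077). Oxa1l, listed with them, is not a ribosomal protein but the inner membrane insertase that receives the new proteins. It had 22.5, 24.7 and 21.2 FPKM in 8276KD, against 30.7, 29.0 and 31.1 in 3NC, and fell by 0.40 under knockdown (adjusted p = 0.000244) and by 0.46 under overexpression (adjusted p = 1.73e-05). Under overexpression Oxa1l was at -0.27 with transcript GC and -0.14 with coding GC, called both times.

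The genes that build and serve the mitoribosome were counted in the same way, beside the 30.3% of all genes that rose and 44.1% that fell under overexpression. Of 25 genes of its assembly and rRNA modification, 8 rose and 11 fell (32.0% and 44.0%), close to those shares. Most of the falls did not hold after GC correction, with 7 higher and 2 lower with transcript GC and 7 and 3 with coding GC. Falls became fewer over all genes too, with 27.0% higher and 27.4% lower with transcript GC, and 28.1% and 29.0% with coding GC. These shares also stand beside the corrected overexpression counts of the lists that follow. Under knockdown 1 rose and 0 fell, and with 5NC as its control 4 rose and 7 fell. Of all genes, 20.0% rose and 19.5% fell under knockdown, and 24.7% and 30.5% with 5NC as its control. Fastkd2, which binds the ribosomal RNA of the large subunit, rose by 0.66 and Mterf4, which brings the methyltransferase Nsun4 to the ribosome, by 0.57 (adjusted p = 3.24e-05 and 6.77e-06). Against 3NC Mterf4 was at 0.13 (adjusted p = 0.0899). The pseudouridine synthase relative Rpusd3 fell by 0.68 but was at -0.06 with transcript GC (adjusted p = 0.588). Among 13 translation factors 4 rose and 5 fell under overexpression (2 and 4 with coding GC), with the release factor relative Mtrf1 at 0.56, the elongation factor Tsfm at -0.59 and the initiation factor Mtif3 at -0.38, all called. Tufm, the elongation factor that delivers aminoacyl-tRNAs, had 37.0, 39.8 and 41.2 FPKM in 8276OV, against 49.6, 45.4 and 45.5 in 5NC. It fell by 0.25 (adjusted p = 0.0014), and was at 0.22 with transcript GC (adjusted p = 0.000426), a call in the other direction. Of 17 mitochondrial aminoacyl-tRNA synthetases 4 rose and 9 fell on the values as deposited, but 6 rose and 3 fell with transcript GC, and 4 and 3 with coding GC. Rars2 was at 0.48, Ears2 at -0.83 and Vars2 at -0.63. With transcript GC, Ears2 was at -0.25 (adjusted p = 0.0676) and Vars2 at -0.01 (adjusted p = 0.831). Under knockdown 0 synthetases rose and Mars2 fell, by 0.26 (adjusted p = 0.0385). That call was lost with coding GC, at -0.21 (adjusted p = 0.104), and with 5NC as the control, at -0.18 (adjusted p = 0.111).

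Of 12 genes for the upkeep and transcription of mitochondrial DNA, 8 rose and 2 fell under overexpression, with a median log2 fold change of 0.38, where 30.3% of all genes rose and 44.1% fell. The median was 0.18 with transcript GC (8 higher, 0 lower) and 0.15 with coding GC (7 higher, 0 lower). The shares of all genes were then 27.0% higher and 27.4% lower, and 28.1% and 29.0%. Tfam, which packages mitochondrial DNA and starts its transcription, had 56.3, 52.3 and 53.0 FPKM in 8276OV, against 37.7, 35.7 and 36.2 in 5NC, and rose by 0.55 (adjusted p = 3.66e-06; 0.32 with transcript GC and 0.25 with coding GC, both called). Slirp, which with Lrpprc stabilises mitochondrial messenger RNAs, had 235, 229 and 248 FPKM in 8276OV, against 129, 132 and 134 in 5NC, and 216, 184 and 218 in 8276KD, against 165, 168 and 148 in 3NC. It rose in both arms, by 0.84 (adjusted p = 2.77e-07) and 0.36 (adjusted p = 0.000835). The single-stranded DNA binding protein Ssbp1 rose by 0.51 and Lrpprc by 0.29 under overexpression, and Lrpprc was at 0.05 with coding GC (adjusted p = 0.38). Ssbp1 was at 0.18 with transcript GC, 0.22 with coding GC and 0.22 against 3NC, called each time. Against 5NC as the control of 8276KD, Lrpprc was at -0.21 (adjusted p = 0.00343), opposite to its rise of 0.14 against 3NC. For comparison, 49 of 90 cytosolic ribosomal protein genes rose and 22 fell under overexpression, and 12 rose and 33 fell under knockdown. With 5NC as the control of 8276KD, 44 rose and 17 fell. Among 79 nuclear genes of oxidative phosphorylation, 44 rose and 24 fell under overexpression, and 20 rose and 8 fell under knockdown (35 and 16 with 5NC as the control). Of all genes, 20.0% rose and 19.5% fell under knockdown, and 24.7% and 30.5% with 5NC as the control. With 3NC as the control of 8276OV, 39 cytosolic genes rose and 29 fell, and 38 and 27 of the oxidative phosphorylation genes. In that comparison 33.5% of all genes rose and 41.7% fell.

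The members also share features that their symbols did not fix. Their transcripts had a median length of 1253 bases, against 2867 over all genes tested, and coding sequences of 582 bases, against 1392, while the median GC content of the transcript was 50%, against 50.5%. The genes lie on 17 chromosomes, with 11 on chromosome 11. Exons of 33 members overlap another gene, and in 23 cases that is a protein-coding gene.

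Promoters from RefSeq (GRCm38.p6, 250 bases before to 50 after the start) were found for 69 members. The letters CCGGAAG, a core of sites for ETS factors, were found on either strand in 26 of them (37.7%), against 21.5% of the promoters of all genes tested and 9.93% of all promoters. CCAAT, the letters of the CCAAT box, were in 27 (39.1%), against 44.1% and 41.1%. The motifs were searched separately and matches may overlap. By direction under overexpression, CCGGAAG was found in 11 of 31 members that rose (35.5%), 10 of 25 that fell (40.0%) and 5 of 13 not called (38.5%). The same counts were 14, 9 and 4 for CCAAT, 2, 1 and 0 for the NRF1 letters and 1, 4 and 0 for the YY1 letters. The 140 bases before the start are shown for a member that rose, Mrps22 (chr9:98601680-98601819, minus strand), and a member that fell, Mrps26 (chr2:130563617-130563756, plus strand), with the ETS letters in capitals.
Mrps22: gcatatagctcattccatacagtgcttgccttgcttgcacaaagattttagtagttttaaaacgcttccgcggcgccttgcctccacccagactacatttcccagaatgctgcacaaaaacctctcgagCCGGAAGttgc
Mrps26: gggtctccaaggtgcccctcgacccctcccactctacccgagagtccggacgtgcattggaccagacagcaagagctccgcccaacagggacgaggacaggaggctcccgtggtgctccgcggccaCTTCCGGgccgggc
Both windows hold the letters close to the start, on the strand of the gene in Mrps22 and on the other strand in Mrps26, although the genes moved in opposite directions. A match of letters is a description and not a measured site.

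Across the 12 libraries, the small-subunit genes whose log2 profile was most like the mean profile of the small subunit were Mrps15 (Pearson's r = 0.92), Mrps34 (0.90) and Mrps24 (0.88). For the large subunit they were Mrpl58 (0.93), a peptidyl-tRNA hydrolase built into the ribosome, Mrpl23 (0.86) and Mrpl12 (0.82). Mrps14, with the largest rise under overexpression, was at -0.66 with the small-subunit mean. These values describe 12 libraries in 4 groups and include the genes themselves in the mean.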

How the data were processed

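The authors deposited one table of 17576 genes with a value per library for 12 libraries, which was read as FPKM from the values, and TPM cannot be told apart from it. Reads were set on mm10, per the submitters' processing notes, and for the aligner, quantifier, annotation and strand handling the sources used here give nothing. The 11360 genes that reached an FPKM of 1 in 3 or more libraries were tested. log2(FPKM + 1) was fitted with limma 3.58.1 in R 4.3.3 over all 12 libraries (eBayes with trend and robust), two-sided, with Benjamini-Hochberg adjustment over all genes and a threshold of 0.05. Fold changes are on this log2(FPKM + 1) scale and understate changes of low genes. GC correction removed, per library, a natural spline with df 5 fitted to GC content, taken from the GENCODE M21 protein-coding transcript with the longest coding sequence (11248 genes). Correction with coding GC (11170 genes) was added after the data were seen. The fit was tested on simulated data. Depth came from the step between low values times transcript length. Named per subunit and direction were up to 5 called members with the largest change and no overlap between groups (2 between the controls), up to 3 genes per pathway list with the smallest p, and fixed genes. Other members were named after their values were seen. The members and lists were chosen with earlier results of these data known. Alternatives were another pseudocount (0.1), no filter, quantile and median-of-ratios scaling, the other control, the libraries of 2 groups alone, a replicate block and leaving out each library.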

Additional observations from a re-analysis of the deposited data

How the results depend on the processing

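Counts of members called under overexpression stayed within 1.5 times under every setting tried, at 11 to 11 and 10 to 12 small-subunit genes higher and lower, and 20 to 23 and 17 to 18 large-subunit genes, when a library was left out. Under knockdown these ranges were 4 to 7 and 1 to 3, and 9 to 12 and 3 to 8, and for 5NC against 3NC 5 to 9 and 2 to 4, and 9 to 10 and 6 to 10. The knockdown count of 7 small-subunit genes higher was 4 without replicate 3 of 8276KD. That of 2 lower was 1 without replicate 1 or 2 of 3NC or replicate 1 or 3 of 8276KD, and that of 6 large-subunit genes lower was 3 without replicate 1 or 3 of 3NC or of 8276KD. For 5NC against 3NC, 9 small-subunit genes higher became 5 without replicate 3 of 3NC. The counts of 4 small-subunit and 13 large-subunit genes lower became 2 and 6 to 8 without replicate 1 or 2 of 3NC or replicate 2 or 3 of 5NC. Without a filter on low values, knockdown called 1 small-subunit and 3 large-subunit genes lower, and 5NC against 3NC called 2 small-subunit genes lower. With quantile normalization knockdown called 1 small-subunit gene lower, and with 5NC as its control 6 small-subunit and 10 large-subunit genes. Either GC correction gave 7 small-subunit genes lower in 5NC against 3NC. The shares of all genes called when a library was left out are not given here, and the causes were not tested.

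Same-numbered libraries did not all deviate together (correlations of -0.254 to 0.59), nor did every library correlate best with one of its own number, so the replicate numbers were not read as pairs. With a replicate block, overexpression called 11 small-subunit genes higher and 12 lower, and 23 and 18 large-subunit genes. With the block and transcript GC correction, knockdown called 11 small-subunit genes higher and 5NC against 3NC called 7 lower.

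Single genes changed sign mostly near 0, and the cause was not tested. With 5NC as the control of 8276KD, log2 fold changes were -0.21 for Lrpprc, 0.0071 for Mrpl12, 0.021 for Mrpl14, 0.048 for Mrpl45, 0.081 for Mrps18a, -0.069 for Mrps18b, -0.03 for Mrps30, 0.14 for Mtfmt, -0.25 for Pdf, 0.094 for Ptcd3, -0.087 for Tfam, 0.33 for Tufm and -0.092 for Twnk. With transcript GC, with or without the replicate block, knockdown gave 0.056 for Mrpl12, 0.036 for Mrps18a and -0.014 for Tfam, overexpression gave 0.0036 for Mrps18a and 0.22 for Tufm, and 5NC against 3NC gave -0.00072 for Mrps18c. The difference between the arms was then 0.27 for Tufm. With coding GC, overexpression gave 0.077 for Mrps30 and 0.061 for Tufm, knockdown gave 0.013 for Mrps18a, 0.063 for Mrpl12 and -0.022 for Tfam, and the difference between the arms was 0.15 for Tufm and -0.053 for Lrpprc. Median-of-ratios scaling gave -0.022 for Mrps18c in 5NC against 3NC and 0.0041 for Dap3 under overexpression, and quantile normalization gave -0.009 for Mrps18b under knockdown. When a library was left out, signs changed within these ranges, under knockdown -0.033 to 0.029 for Ptcd3, -0.20 to 0.031 for Gadd45gip1, -0.10 to 0.032 for Mrps18a, -0.046 to 0.081 for Mrps18b, -0.035 to 0.027 for Mrps18c, -0.10 to 0.05 for Mrpl12 and -0.04 to 0.078 for Tfam, and in 5NC against 3NC -0.025 to 0.025 for Mrps18c and -0.082 to 0.042 for Mrpl12.

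Of the other values under settings that kept all libraries, 1071 kept their direction and side of the threshold, 51 no longer passed and 38 newly passed. The implied depth limits most the members with few fragments, a number that depends on transcript length as well as level, such as Mrpl41 (64 to 90).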
